A study of Mus musculus with 4 samples.

Results

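Transcripts of 9 receptor genes that steer lymphocytes into and within tissues were measured in leukocytes of the intraepithelial layer of the mouse gut: the chemokine receptors Ccr9, Ccr2, Cxcr4, Cxcr3 and Cxcr6, the intestinal homing receptor Gpr15, and the lipid or orphan receptors Gpr18, Gpr55 and Gpr171. They were chosen by name and are 9 of the 16500 gene symbols listed in any library, and all 9 were listed in each of the 4 libraries. Single CD45.2+ cells sorted from uninfected C57BL/6 mice had been sequenced with the 10x Genomics 3′ droplet method, as 1 library each for stomach, small intestine, cecum and colon. All 4 groups share strain, sort and absence of infection and differ in the tissue label; the labels give no age and no number of animals. With 1 library per tissue no replicate check and no p-value was possible, and tissue, animal, library and sequencing run cannot be told apart.

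Chemokine receptors read gradients of small secreted proteins, and the set a lymphocyte carries bears on which vessels it leaves and which tissue it enters. Ccr9 binds Ccl25, which the epithelium of the small intestine makes, and is the textbook receptor of small intestinal homing, while Gpr15 guides T cells to the large intestine. Cxcr6 binds Cxcl16 and marks many resident lymphocytes, Cxcr3 follows interferon-induced chemokines, Ccr2 brings monocytes out of the marrow, and Cxcr4 binds Cxcl12.

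The genes lie on 6 chromosomes (RefSeq, GRCm38.p6). On the plus strand were Ccr9 at chr9:123767211-123783457, Cxcr6 at chr9:123806477-123811754 and Ccr2 at chr9:124101918-124109140. On the minus strand were Gpr15 at chr16:58716643-58718872, Cxcr4 at chr1:128588199-128592299, Gpr55 at chr1:85933221-85991583, Gpr171 at chr3:59096448-59101821, Gpr18 at chr14:121911434-121915888 and Cxcr3 at chrX:101731535-101734147. RefSeq promoter windows, from 250 bases before to 50 after a transcription start, were matched for 8 of the 9. Windows are shown for Ccr9, Gpr15 and Ccr2, which had the largest ratios between libraries over Cd3+ cells, and for Cxcr6, which lies between Ccr9 and Ccr2. They are Ccr9 (chr9:123766961-123767260, plus strand), Cxcr6 (chr9:123806227-123806526, plus strand), Ccr2 (chr9:124101933-124102232, plus strand) and Gpr15 (chr16:58718823-58719122, minus strand), each 5′ to 3′ on the gene's strand. Capitals mark matches, on either strand, to TGTGGT (the core read by Runx factors), AGATAA (factors of the GATA family), GCGTG (the core read by the aryl hydrocarbon receptor), AGGAAG (ETS factors) or TCACACC (T-box factors).
Ccr9: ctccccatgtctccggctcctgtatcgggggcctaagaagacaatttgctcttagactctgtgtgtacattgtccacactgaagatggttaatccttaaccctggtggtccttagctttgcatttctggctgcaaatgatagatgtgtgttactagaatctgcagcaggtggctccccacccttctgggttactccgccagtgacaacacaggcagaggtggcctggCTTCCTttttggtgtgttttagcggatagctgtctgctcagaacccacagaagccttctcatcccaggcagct
Cxcr6: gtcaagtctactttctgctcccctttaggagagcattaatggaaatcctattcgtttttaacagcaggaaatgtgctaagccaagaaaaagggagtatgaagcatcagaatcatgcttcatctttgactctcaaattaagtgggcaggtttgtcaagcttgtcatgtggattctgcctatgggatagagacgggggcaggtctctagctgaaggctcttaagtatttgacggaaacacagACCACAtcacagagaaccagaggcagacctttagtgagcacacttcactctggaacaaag
Ccr2: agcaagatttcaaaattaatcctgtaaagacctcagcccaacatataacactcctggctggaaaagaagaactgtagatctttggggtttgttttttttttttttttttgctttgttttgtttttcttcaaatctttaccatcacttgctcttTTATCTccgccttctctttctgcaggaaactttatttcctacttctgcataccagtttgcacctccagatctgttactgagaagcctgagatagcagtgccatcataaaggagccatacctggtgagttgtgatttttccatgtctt
Gpr15: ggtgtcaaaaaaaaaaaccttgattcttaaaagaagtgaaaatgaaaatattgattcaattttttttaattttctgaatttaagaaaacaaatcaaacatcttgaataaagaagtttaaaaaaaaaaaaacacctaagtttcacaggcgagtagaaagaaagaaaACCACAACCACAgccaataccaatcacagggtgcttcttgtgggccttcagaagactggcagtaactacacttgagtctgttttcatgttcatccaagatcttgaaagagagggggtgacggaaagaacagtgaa
The Gpr15 window held 2 adjacent matches to TGTGGT on the reverse strand and the Cxcr6 window 1, the Ccr9 window 1 match to AGGAAG and the Ccr2 window 1 to AGATAA. Of 32851 RefSeq windows of this length, TGTGGT occurs in 16.8%, AGATAA in 11.2%, GCGTG in 32.4%, AGGAAG in 35.4% and TCACACC in 3.98%. The matches describe letters alone, and no binding was measured.

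Whether tissue differences hold within a lineage was asked by gating cells on transcripts. Cd3+ cells carry at least 1 unique molecular identifier (UMI, 1 counted transcript) of Cd3d, Cd3e or Cd3g and meet no other class; the alpha receptor chain transcript Trac, which the gate did not use, was at 594 to 900.3 CPM in them. They were divided, in this order, into cells with Trdc (the constant chain of the delta receptor chain of gamma-delta T cells), with Cd8b1 (the beta chain of conventional CD8), with Cd4, with Cd8a without Cd8b1 (the alpha homodimer common in gut epithelium), and with none of these, called the marker-negative gate. Cells with both Cd8b1 and Cd4 were kept apart. The marker-negative and Cd8a gates rest on the absence of UMIs, so they can hold cells whose transcript was not sampled. Median depth in the marker-negative gate was 1680 UMIs in cecum, 2155 in small intestine, 2584 in stomach and 2649.5 in colon. NK or ILC1, B, plasma, Siglech-expressing dendritic, macrophage and mast cells were gated on fixed markers, and cells meeting the rules of more than 1 class were set aside as mixed (124 in stomach, 208 in small intestine, 128 in cecum, 171 in colon), the only treatment of doublets.

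The stomach library held 297 Cd3+ cells, 9.29% of its cells, against 3258 (86.6%) in colon, 3406 (80.3%) in cecum and 2385 (75.2%) in small intestine, and 1909 stomach cells were in the mast gate. In the order stomach, small intestine, cecum and colon, the Trdc gate held 52, 1613, 506 and 875 cells, the Cd8b1 gate 56, 89, 137 and 142, the Cd4 gate 31, 71, 48 and 58, and the marker-negative gate 153, 155, 1707 and 874. The Cd8a gate held 1306 cells in colon, 1006 in cecum and 453 in small intestine, but 5 in stomach, where it was not compared. Library totals ran from 8568438 to 12988676 UMIs and median UMIs per cell from 1707 in cecum to 2986 in colon; the shallowest cell had 1581 UMIs in small intestine and 291 to 361 elsewhere. Between 10.7% and 24.7% of the Trdc gate rested on a single Trdc UMI, and 23 barcode sequences occurred in more than 1 library.

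Levels are in CPM, the UMIs of a gene scaled to the total of all UMIs summed over the gate, with an exact 95% Poisson interval in parentheses, and ratios carry an exact conditional 95% interval. Both cover counting error only, and a summed level does not separate fewer positive cells from less RNA per cell. A ratio was called when it was at least 2-fold, its interval left out 1 and the pair held at least 20 UMIs. Where a library had 0 UMIs, a ratio was computed with 3 counts for that library, which is not the lower limit of the exact interval.

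Counted over all Cd3+ cells, 4 of the 9 receptors differed between small intestine and colon, where 11.4% of 12290 genes were called, and 5 of 9 between small intestine and cecum (13.8% called). Ccr9 and Cxcr6 were higher in small intestine in both comparisons, Gpr15 and Cxcr4 were lower in both, and Ccr2 was higher than in cecum. None of the 9 was called between cecum and colon (4.8% called), where the largest ratio was 1.94-fold (1.25 to 3.11), of Ccr2 in colon over cecum; without cells carrying NK markers it was 4.27-fold. The stomach differed in 7 of 9 from small intestine (18.3% called), from cecum (16.9%) and from colon (16%). Ccr2, Cxcr4, Cxcr3 and Cxcr6 were higher in stomach in all 3 comparisons and Ccr9 and Gpr55 lower in all 3; Gpr18 was lower than in small intestine, and Gpr15 lower than in cecum and colon. The comparisons share libraries. The median log2 ratio of all tested genes was 0.02 for small intestine over colon, -0.13 for stomach over small intestine, -0.16 over cecum and -0.12 over colon.

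Inside the T cell gates most of these 30 differences kept their direction. The gates are parts of the same Cd3+ sums, so this is not an independent second finding. The 30 calls gave 107 comparisons within a gate with enough cells and UMIs, of which 85 were called in the same direction, 20 had the same direction without a call, 1 was called the other way and 1 pointed the other way without a call. By pair, 12 of 17 were called in the same direction for small intestine against colon (9.77% of genes called over these gates), 15 of 18 for small intestine against cecum (10.9%), 22 of 26 for stomach against small intestine (14.4%), 19 of 23 for stomach against cecum (14.4%) and 17 of 23 for stomach against colon (12.7%). Both exceptions were Cxcr4 in the Cd4 gate of the stomach. The percents in parentheses are over all genes tested in the gates, not over genes already called in Cd3+ cells, and are no like background.

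**Figure D1:**
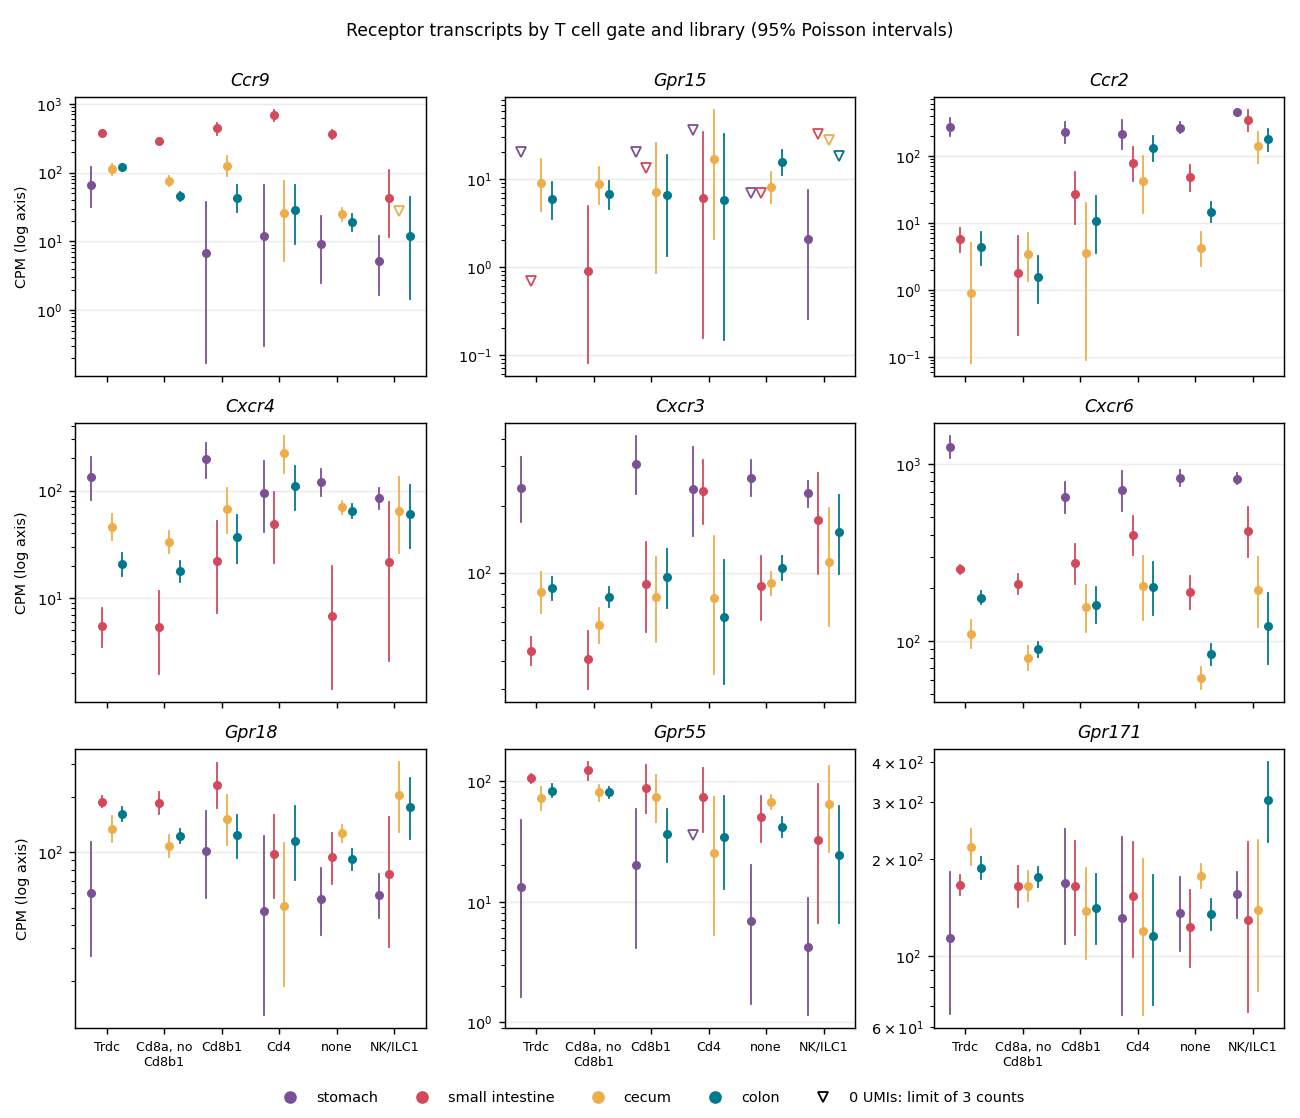
Level of each receptor in CPM (log axis) in the 5 T cell gates and the NK or ILC1 gate (x axis; none is the marker-negative gate), by library (colour), with 95% Poisson intervals; open triangles are the 3-count limit of a gate with 0 UMIs, and gates under 30 cells are left out. The small intestine is highest for Ccr9 in all 5 T gates, and the stomach for Cxcr6 in the 4 T gates it has.

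Ccr9, the Ccl25 receptor, was at 374 CPM (359 to 389) in small intestinal Cd3+ cells, 61.9 (57.3 to 66.7) in colon, 59.6 (53.9 to 65.8) in cecum and 20.5 (11.9 to 32.7) in stomach. Small intestine stood apart at the top and stomach at the bottom, and colon and cecum overlapped. Small intestine exceeded colon in every T gate, by amounts that depended on the gate: 3.12-fold (2.8 to 3.49) in Trdc, 6.34-fold (5.31 to 7.59) in Cd8a, 10.2-fold (6.25 to 17.4) in Cd8b1, 18.9-fold (13.6 to 26.7) in marker-negative and 23.8-fold (9.91 to 74.8) in Cd4 cells. The last ratio was 7.63 (3.1 to 18.8) times that in Trdc cells, and the ratio in marker-negative cells 6.06 (4.31 to 8.52) times. The marker-negative gate of small intestine also carried epithelial transcripts, with Krt8 at 1874 CPM and the ligand Ccl25 at 201 CPM (88 UMIs), against 10.7 and 2.51 CPM in the Trdc gate; their part in the Ccr9 result was not tested.

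The order of the gates differed between the libraries. Small intestinal Ccr9 was 288 CPM (258 to 321) in Cd8a, 362 (308 to 423) in marker-negative, 381 (363 to 399.8) in Trdc, 439.9 (357 to 536) in Cd8b1 and 686 (565 to 825) in Cd4 cells. In colon Trdc cells had 122 CPM (110.4 to 135), Cd8a cells 45.4 (39.4 to 52.1), Cd8b1 cells 43.2 (26.4 to 66.8), Cd4 cells 28.8 (9.35 to 67.2) and marker-negative cells 19.2 (14.1 to 25.4). The Cd4 gate was thus highest in small intestine, and Trdc highest in colon. Trdc cells exceeded marker-negative cells 6.37-fold (4.71 to 8.79) in colon and 4.54-fold (3.38 to 6.12) in cecum, but 1.05-fold (0.893 to 1.24) in small intestine.

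Cecum and colon, which overlapped over all Cd3+ cells, did not in every gate. Cecal Cd8b1 cells had 127 CPM (88.9 to 176), 2.94-fold (1.65 to 5.35) the colonic level, and Cd8a cells 76.1 (64.6 to 88.9), 1.67-fold (1.35 to 2.07) and below the 2-fold mark. Trdc cells had 112 CPM (93.5 to 134), overlapping the colon. In stomach 10 of the 17 Ccr9 UMIs lay in Trdc cells, at 66.7 CPM (32 to 123), and marker-negative cells had 9.22 (2.51 to 23.6).

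As shares of cells after thinning each to 1000 UMIs, 27.9% of small intestinal Cd3+ cells had a Ccr9 UMI (49.6% before thinning), 4.99% of colonic (12.8%), 4.93% of cecal (8.19%) and 2.03% of stomach cells (4.71%), at Cd3+ median depths of 2313, 2976.5, 1751 and 2538 UMIs. Background, read in macrophages after the same thinning, was 2.56% in small intestine and 0% in stomach. The 49 colonic macrophages were also at 0%. Stomach Cd3+ cells exceeded the macrophages of their own library 5.08-fold (1.91 to 15.7) in CPM and its mast cells 18-fold (6.39 to 62.5). They exceeded its NK or ILC1 cells 3.93-fold (1.39 to 13.6). Its plasma cells, with 4 UMIs, were 1.39-fold (0.341 to 4.27) above the Cd3+ cells, and the interval holds 1.

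**Figure D2:**
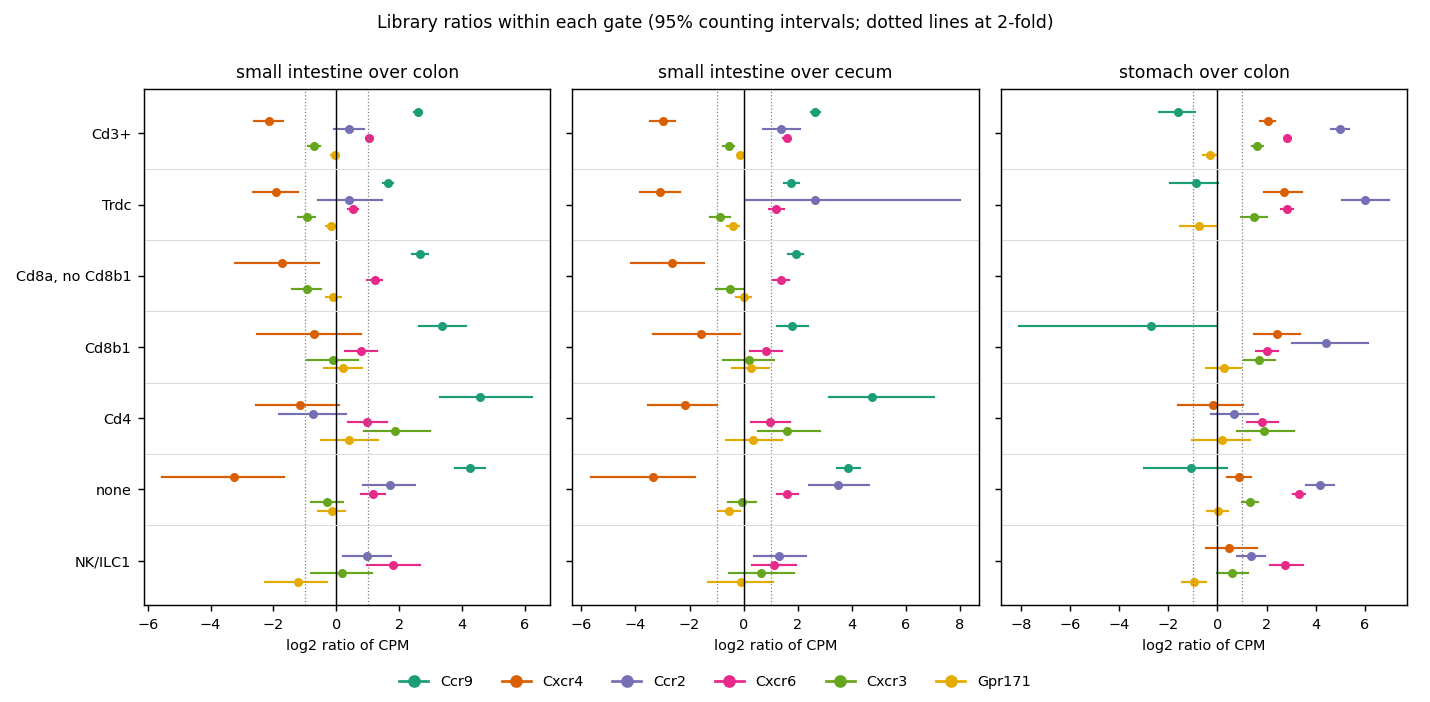
Log2 ratio of CPM between libraries (x axis; a panel for each of 3 pairs) for 6 receptors (colour) over all Cd3+ cells and in each gate (y axis), with 95% counting intervals and dotted lines at 2-fold; ratios under 20 UMIs or with a library at 0 are not drawn. Ccr9 lies right of 0 in all 5 T gates for small intestine over colon, while the points of Gpr171 stay within the dotted lines in the T gates of all 3 panels.

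Gpr15, the homing receptor of the large intestine, was a transcript of cecum and colon. Its Cd3+ counts were 57 UMIs in cecum, 8.59 CPM (6.5 to 11.1), and 92 in colon, 8.45 CPM (6.81 to 10.4), against 2 in small intestine, 0.314 CPM (0.0381 to 1.14), and 0 in stomach. Cecum and colon overlapped. Colon exceeded small intestine 26.9-fold (7.23 to 225) and cecum exceeded it 27.3-fold (7.22 to 231). With 3 counts set for it, stomach was 2.38-fold below cecum and 2.34-fold below colon. The exact intervals of these ratios began at 1.87 for cecum and 1.87 for colon. The 297 stomach cells limit what could be detected.

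Cecal Gpr15 was 9.07 CPM (4.35 to 16.7) in Trdc, 8.72 (5.17 to 13.8) in Cd8a and 8.16 (5.28 to 12) in marker-negative cells, which overlapped. Colonic Trdc cells had 5.84 CPM (3.52 to 9.12), Cd8a cells 6.68 (4.51 to 9.53) and marker-negative cells 15.6 (11.1 to 21.3), the last 2.66-fold (1.5 to 4.88) above Trdc. The same 3 gates of small intestine held 0, 1 and 0 UMIs. B cells of cecum and colon held 0 and 0.

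Ccr2, the receptor for Ccl2, was at 250.2 CPM (217 to 287) in stomach Cd3+ cells, 10.5 (8.16 to 13.4) in small intestine, 7.9 (6.32 to 9.75) in colon and 4.07 (2.68 to 5.92) in cecum. Stomach exceeded small intestine 23.8-fold (18 to 31.8), cecum 61.5-fold (41.1 to 95.6) and colon 31.7-fold (24.5 to 41.2). Stomach gates were close to each other: 273 CPM (196 to 371) in Trdc, 229 (158 to 319.5) in Cd8b1, 214 (127 to 339) in Cd4 and 265 (219 to 318) in marker-negative cells, all overlapping.

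The intestinal gates were not close. In small intestine Trdc cells had 5.7 CPM (3.69 to 8.42) and Cd8a cells 1.77 (0.215 to 6.4), against 47.9 (29.6 to 73.2) in marker-negative and 79.6 (42.4 to 136) in Cd4 cells, the last 14-fold (6.56 to 28.3) above Trdc. Colonic Cd4 cells had 132 CPM (83.9 to 199) and Trdc cells 4.3 (2.35 to 7.22), 30.8-fold (15.2 to 64.7) apart. The stomach excess over colon was therefore 63.5-fold (33.9 to 126) in Trdc cells and 1.62-fold (0.824 to 3.14) in Cd4 cells, where it was not called. Over small intestine it was 2.69-fold (1.25 to 5.98) in Cd4 and 5.54-fold (3.46 to 9.29) in marker-negative cells. Among the intestinal libraries, marker-negative cells had 3.24-fold (1.8 to 5.68) more Ccr2 in small intestine than in colon.

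Stomach Cd3+ cells also carried more NK transcripts, and 39.7% of them had at least 2 UMIs of NK markers, against 19.4% in colon, 10.5% in cecum and 6.50% in small intestine. All 5 markers were highest in stomach: Ncr1 was at 155 CPM against 5.97 to 15.5, Klrb1b at 160.0 against 4.82 to 7.62, Klre1 at 352 against 44.5 to 166, Klrb1c at 153 against 54.7 to 81.4 and Eomes at 25.3 against 4.13 to 4.97. NK or ILC1 cells themselves had 449 CPM (407 to 493) of Ccr2 in stomach, 345 (236 to 488) in small intestine, 176 (118 to 253) in colon and 139 (77.8 to 229) in cecum. Without the marked cells the Cd3+ log2 ratio of stomach over small intestine was 4.94 for Ccr2 (4.57 with them), 1.85 for Cxcr6 (1.80), 4.34 for Cxcr4 (4.18) and 2.5 for Cxcr3 (2.34). For Ccr2 over cecum it was 7.03 (5.94 with them). Cxcr4 and Cxcr3 also rose over cecum and colon. Other ratios fell: Ccr2 over colon was 4.94 (4.99), and Cxcr6 was 3.36 over cecum (3.39) and 2.80 over colon (2.85). Ccr9, lower in stomach, moved toward equality. Its log2 ratio was -3.65 over small intestine (-4.19), -1.1 over cecum (-1.54) and -1.18 over colon (-1.60). The part of NK-marked cells in these results was not tested further.

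The early response and heat-shock transcripts were also highest in stomach Cd3+ cells: Fos was at 3376 CPM against 1400.4 to 1779, Nr4a1 at 841 against 154 to 218 and Hspa1a at 4737 against 761 to 1754. They were highest in the same library as Ccr2, Cxcr6, Cxcr4 and Cxcr3, and their part in those results was not tested. The epithelial keratin Krt8 was at 138 CPM in small intestinal Cd3+ cells against 0.452 to 7.62 in the other libraries. The 46 ungated small intestinal cells, with Krt8 at 3073 CPM, had Ccr9 at 70.3 CPM, below the Cd3+ cells of that library.

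In macrophages, which arise in part from Ccr2-bearing monocytes, the order was another. Ccr2 was at 1187 CPM (1068 to 1316) in colon, 821 (776 to 868) in stomach and 589 (473 to 725) in small intestine, and colon exceeded small intestine 2.02-fold (1.59 to 2.57). Of the 9 receptors Ccr2 was the most abundant in the macrophage gates of these 3 libraries.

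Cxcr4, the Cxcl12 receptor, had its lowest T cell level in small intestine. Cd3+ cells had 131 CPM (108 to 158) in stomach, 57.4 (51.8 to 63.5) in cecum, 31.8 (28.5 to 35.3) in colon and 7.23 (5.29 to 9.65) in small intestine, with no overlap. Small intestine was below colon 4.39-fold (3.22 to 6.11), below cecum 7.94-fold (5.83 to 11) and below stomach 18.1-fold (12.7 to 26.2). Against cecum it was lower in all 5 gates, from 3.01-fold (1.09 to 10.3) in Cd8b1 to 10.3-fold (3.46 to 50.1) in marker-negative cells. Against colon the ratios 1.65-fold (0.586 to 5.73) in Cd8b1 and 2.23-fold (0.933 to 5.9) in Cd4 cells were not called, and those of the other 3 gates were.

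Within each intestinal library the Cd4 gate stood above the Trdc gate. Cd4 and Trdc cells had 49 CPM (21.1 to 96.5) and 5.48 (3.51 to 8.15) in small intestine, 222 (145 to 325) and 46.3 (34.4 to 60.8) in cecum, and 109 (65.9 to 171) and 20.6 (16 to 26.2) in colon. The differences were 8.95-fold (3.47 to 20.6), 4.79-fold (2.87 to 7.83) and 5.31-fold (3.01 to 8.95). Stomach Cd4 cells had 95.3 CPM (41.1 to 188), overlapping stomach Trdc cells at 133 (81.4 to 206). In Cd4 cells cecum was therefore above stomach, 2.32-fold (1.02 to 5.94), whereas stomach was above cecum in Trdc cells, 2.88-fold (1.63 to 4.92), and in Cd8b1 cells, 2.91-fold (1.58 to 5.5).

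B cells, which carry Cxcr4 from their development on, had 399 CPM (244 to 617) in small intestine (18 cells), 326 (281 to 375) in cecum, 309.7 (248 to 382) in colon and 121 (67.8 to 199.9) in stomach. Here cecum exceeded stomach 2.69-fold (1.59 to 4.89) and colon exceeded it 2.55-fold (1.47 to 4.76). Cecal B cells had 5.67-fold (4.75 to 6.77) the level of cecal Cd3+ cells.

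Cxcr3, the receptor for Cxcl9 and Cxcl10, was at 268 CPM (234 to 306) in stomach Cd3+ cells, 86.9 (81.4 to 92.6) in colon, 77.7 (71.2 to 84.7) in cecum and 53.1 (47.6 to 59.1) in small intestine. Stomach stood apart, and colon and cecum overlapped. Stomach exceeded small intestine 5.05-fold (4.24 to 6.0), cecum 3.45-fold (2.94 to 4.05) and colon 3.09-fold (2.66 to 3.58). The last was called in all 4 gates, at 2.82-fold (1.93 to 4.0) in Trdc, 3.25-fold (2.1 to 5.03) in Cd8b1, 3.76-fold (1.72 to 8.69) in Cd4 and 2.54-fold (2.02 to 3.17) in marker-negative cells.

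The Cd4 gate of small intestine went its own way. It had 233 CPM (165 to 319), against 44.5 (38.5 to 51.2) in Trdc and 40.8 (29.8 to 54.4) in Cd8a cells of the library, and was 5.23-fold (3.59 to 7.43) above Trdc. It overlapped stomach Cd4 cells at 238 (146 to 368) and exceeded colonic Cd4 cells, at 63.3 (31.6 to 113), by 3.67-fold (1.84 to 7.97). In Trdc cells colon was above small intestine instead, 1.91-fold (1.59 to 2.31), below the 2-fold mark, and the ratio of these ratios was 7.03 (3.51 to 14.1). NK or ILC1 cells had 227 CPM (198 to 259) in stomach, 173 (98.7 to 280.4) in small intestine, 152 (98.3 to 224) in colon and 111 (57.5 to 194) in cecum, with overlap between neighbours, and B cells of cecum and colon held 0 and 0 UMIs.

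Cxcr6, the Cxcl16 receptor, was the most abundant of the 9 in stomach Cd3+ cells, at 858 CPM (796 to 923), followed by small intestine at 246 (234 to 258), colon at 119 (113 to 126) and cecum at 81.8 (75.1 to 89). No neighbours in this order overlapped. Stomach exceeded small intestine 3.49-fold (3.19 to 3.82), colon 7.21-fold (6.57 to 7.91) and cecum 10.5-fold (9.37 to 11.7). Over colon it was called in all 4 gates, from 3.55-fold (2.3 to 5.55) in Cd4 to 9.99-fold (8.41 to 11.9) in marker-negative cells, and stomach Trdc cells reached 1259.9 CPM (1087 to 1453).

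Between small intestine and colon the difference was smaller and was not called in every gate. It was 2.07-fold (1.92 to 2.22) over all Cd3+ cells, 2.34-fold (1.99 to 2.76) in Cd8a and 2.25-fold (1.72 to 2.91) in marker-negative cells, but 1.98-fold (1.29 to 3.07) in Cd4, 1.72-fold (1.21 to 2.45) in Cd8b1 and 1.45-fold (1.31 to 1.6) in Trdc cells. All 5 gate intervals left out 1, and without cells carrying NK markers the Cd3+ ratio was 1.94-fold. NK or ILC1 cells had 828 CPM (771 to 888) in stomach, 421 (299 to 575) in small intestine, 195 (120.5 to 298) in cecum and 122 (74.3 to 188) in colon, so that small intestine exceeded colon 3.46-fold (1.97 to 6.27) here too. B cells of cecum and colon held 2 and 0 UMIs.

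Gpr55, a receptor for lysophosphatidylinositol, was at 104 CPM (96.1 to 112) in small intestinal Cd3+ cells, 72.2 (65.8 to 78.9) in cecum and 70.4 (65.5 to 75.6) in colon, and at 12 (5.77 to 22.1) in stomach (10 UMIs). The stomach stood apart, and cecum and colon overlapped. Stomach was below small intestine 8.64-fold (4.67 to 18.1), below cecum 6.0-fold (3.23 to 12.6) and below colon 5.85-fold (3.17 to 12.3). Trdc cells and marker-negative cells were called lower in stomach than in colon, and Cd8b1 cells were not. Marker-negative cells had 6.92 CPM (1.43 to 20.2) in stomach, 50.2 (31.4 to 75.9) in small intestine, 67.9 (58.9 to 77.7) in cecum and 41.9 (34.3 to 50.7) in colon. Within small intestine Cd8a cells had 123 CPM (104 to 145) and Trdc cells 106 (96.7 to 116), and B cells of cecum and colon held 0 and 2 UMIs.

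Gpr18, a lipid or orphan receptor known from intraepithelial T cells, was at 179 CPM (169 to 189.8) in small intestinal Cd3+ cells, 127 (120.3 to 134) in colon, 121 (113 to 130.1) in cecum and 68.6 (51.9 to 88.8) in stomach. Small intestine over stomach was called, 2.61-fold (2.0 to 3.47). Cecum and colon exceeded stomach 1.77-fold (1.35 to 2.36) and 1.85-fold (1.42 to 2.46), short of a call, but past 2-fold with mixed cells kept, with cells thinned and with each of 3 mixes of gates. Within gates small intestine over stomach was called in Trdc, 3.12-fold (1.64 to 6.85), and Cd8b1 cells, 2.29-fold (1.27 to 4.38). In Cd4 cells it was 2.06-fold (0.663 to 8.45) and in marker-negative cells 1.69-fold (0.997 to 2.92), neither called. B cells of cecum and colon had more than T cells, with 251 CPM (213 to 295) in cecum and 257 (201 to 323) in colon, 2.07-fold (1.73 to 2.47) and 2.02-fold (1.58 to 2.56) above their Cd3+ cells. In stomach the ratio was 1.53-fold (0.769 to 2.83), whose interval holds 1, and the 18 B cells of small intestine had 119.8 CPM (44 to 261), below the Cd3+ level there and overlapping it.

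Gpr171, an orphan receptor, varied least of the 9 between the libraries over Cd3+ cells. They had 177 CPM (167 to 188) in cecum, 168 (160.0 to 175) in colon, 162 (152 to 172) in small intestine and 135 (111 to 162) in stomach, and no pair was called. The largest ratio, of cecum over stomach, was 1.32-fold (1.08 to 1.61), an interval that leaves out 2. Trdc cells ran from 113 CPM (66 to 181) in stomach to 218 (191 to 247) in cecum. Other gates were less even. In NK or ILC1 cells colon, at 304 CPM (226 to 401), exceeded small intestine 2.35-fold (1.23 to 4.84) and cecum 2.19-fold (1.21 to 4.19). Plasma cells had 18.2 CPM (13 to 24.9) in small intestine (185 cells), 112 (59.5 to 191) in colon (35 cells) and 166 (128 to 213) in cecum (82 cells), and small intestine did not overlap the others. B cells exceeded the Cd3+ cells of their library 2.52-fold (1.72 to 3.62) in stomach, 2.72-fold (2.38 to 3.1) in cecum and 1.7-fold (1.34 to 2.13) in colon. In small intestine Cd3+ cells were 1.16-fold (0.56 to 2.89) above B cells, and the interval holds 1.

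The libraries differ in their mix of T gates, since Trdc cells were 67.6% of the Cd3+ cells in small intestine and 26.9% in colon. Giving each library the average mix (31.7% Trdc, 22.6% Cd8a, 7.74% Cd8b1, 4.15% Cd4 and 33.7% marker-negative, over the gates both libraries have) left 25 of the 28 calls with a ratio at 2-fold or more, put 3 below and turned none; the other 2 calls, of Gpr15 against stomach, have a library at 0. The 3 below were Ccr9 in colon over stomach (1.97-fold, from 3.03), Cxcr4 in stomach over cecum (1.93-fold, from 2.28) and Cxcr6 in small intestine over colon (1.83-fold, from 2.07). A median of 90.1% of the log2 ratio was kept. Ccr9 in small intestine over colon went from 6.04-fold to 6.18-fold, and Cxcr4 in colon over small intestine from 4.39-fold to 4.42-fold. With the average mix Ccr2 moved most, from 23.8-fold to 8.69-fold in stomach over small intestine and from 2.59-fold to 5.24-fold in small intestine over cecum. Other mixes gave other values. With the mix of the small intestine Ccr9 moved most, from 18.3-fold to 6.87-fold over stomach, and stood at 3.93-fold over colon and 3.82-fold over cecum, while Ccr2 in stomach over small intestine was 21-fold. With the mix of the colon Ccr9 in small intestine was 5.92-fold over colon and 11.1-fold over stomach, and Ccr2 in stomach over small intestine 9.34-fold. These mixes left 25 and 26 of the 28 calls at 2-fold or more and turned none.

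**Figure D3:**
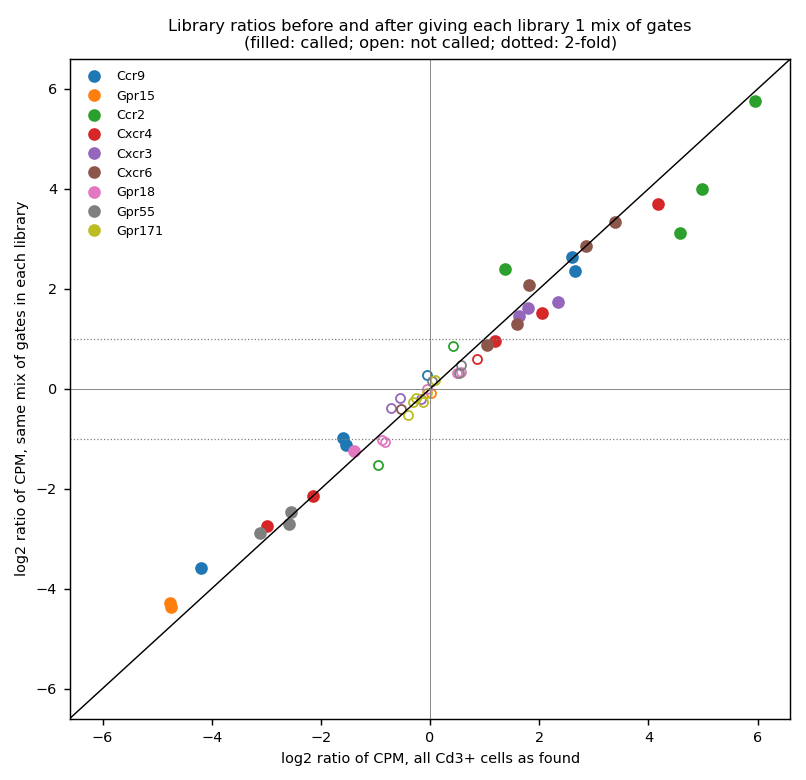
Log2 ratio of CPM between 2 libraries over Cd3+ cells as found (x axis) and with the average mix of T gates in each library (y axis), for the receptors (colour) and 6 pairs; filled points were called as found, dotted lines mark 2-fold and the diagonal marks equality. Ccr2 is farthest from the diagonal, with stomach over small intestine at 8.69-fold in place of 23.8-fold.

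Receptors were next read against transcripts of retention and exit. Cd3+ cells with Itgae, the integrin chain that binds epithelial E-cadherin, and no UMI of S1pr1 or Ccr7 (receptors of tissue exit and of lymph node entry) were set against cells with either of the latter and no Itgae, called exit-type; this pair of exit transcripts was chosen after values of the data were seen. In the order stomach, small intestine, cecum and colon there were 59, 1974, 722 and 1349 Itgae cells and 48, 22, 346 and 422 exit-type cells, and 10.4%, 5.54%, 6.07% and 10.3% of genes were called between them. Of the 9 receptors 3, 4, 3 and 4 were called. Median depth was 3351 UMIs in colonic Itgae and 2642 in exit-type cells, and 1879.5 and 1800 in cecum. The split was made over all Cd3+ cells and not within a T gate, and several of the receptors differ between the gates. In stomach Itgae was not particular to Cd3+ cells. Its level was 161% of theirs in NK or ILC1 cells and 110% in mast cells. Of stomach Cd3+ cells 39.7% had NK markers, and their part in the split was not tested.

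Cxcr4 and Gpr15 were higher in exit-type cells. Cxcr4 was at 119 CPM in exit-type and 9.31 in Itgae cells of colon, 12.8-fold (9.14 to 18.1), at 106 and 22.7 in cecum, 4.68-fold (3.09 to 7.19), and at 38.2 and 3.76 in small intestine, 10.2-fold (1.15 to 41.9), where 2 UMIs were counted in exit-type cells. In stomach it was at 215 and 90.4, 2.38-fold (1.24 to 4.73). Gpr15 was at 16.4 against 4.36 CPM in colon, 3.76-fold (1.97 to 7.18), and at 18.2 against 4.54 in cecum, 4.0-fold (1.48 to 11.8).

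Ccr9 was higher in Itgae cells of the large intestine, and Gpr55 in those of colon and small intestine. Ccr9 was at 88.6 CPM in Itgae and 22.7 in exit-type cells of colon, 3.91-fold (2.68 to 5.9), and at 121 and 37.7 in cecum, 3.2-fold (2.13 to 4.98). In small intestine the values were 358 and 420.4, whose ratio interval holds 1. Small intestine over colon was 4.04-fold (3.64 to 4.49) within Itgae and 18.5-fold (10.2 to 33.4) within exit-type cells. Gpr55 was at 82.2 against 33.6 CPM in colon, 2.45-fold (1.79 to 3.43), and at 91.5 against 50.3 in cecum, 1.82-fold (1.25 to 2.7), not called. In small intestine Gpr55 had 588 UMIs in Itgae cells, 111 CPM, and 0 in exit-type cells, where 22 cells allow up to 57.3 CPM. In stomach Cxcr6 was at 1062 in Itgae and 326 in exit-type cells, 3.25-fold (2.31 to 4.68), and Ccr2 at 243 and 87.6, 2.77-fold (1.41 to 5.96). Small intestine had the opposite direction for Ccr2, at 115 in exit-type (6 UMIs) and 3.95 in Itgae cells, 29-fold (9.59 to 74.4). Cxcr3 was there higher in exit-type cells too, at 172 (9 UMIs) against 47, 3.66-fold (1.65 to 7.06). Gpr171 and Gpr18 were called in no library.

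**Figure D4:**
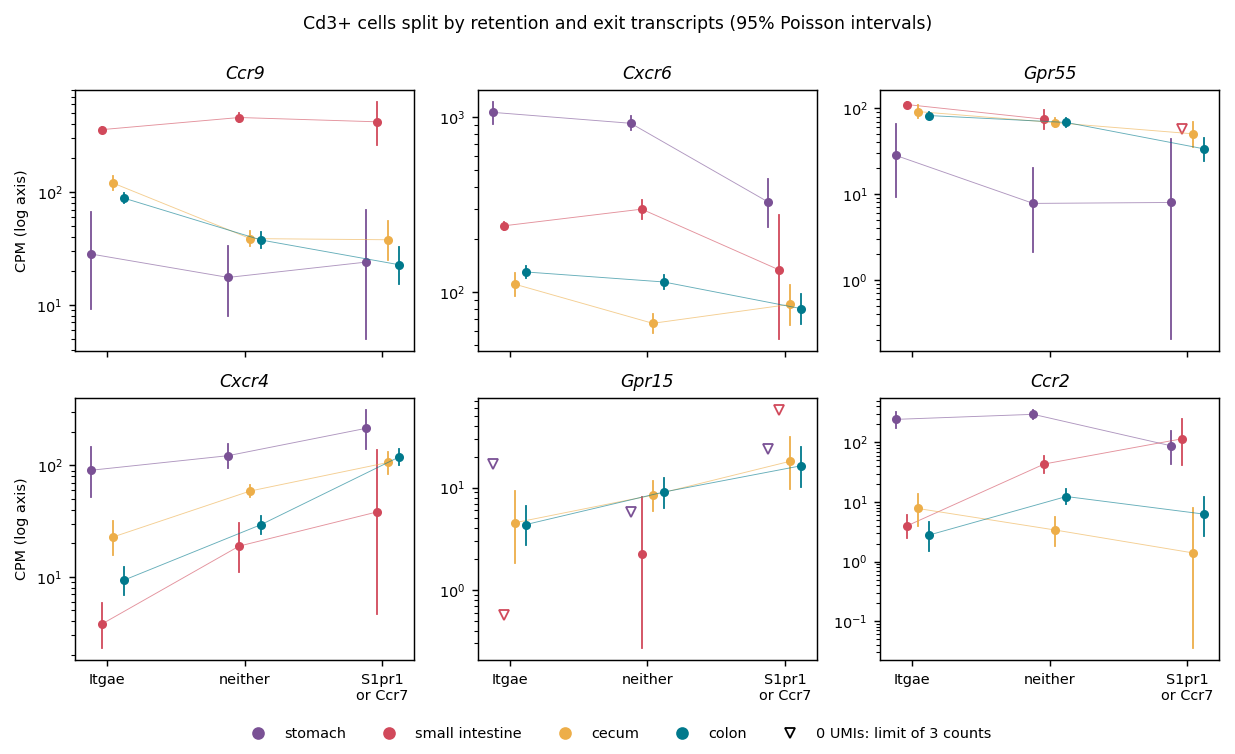
Level in CPM (log axis) of 6 receptors in Cd3+ cells with Itgae, with neither, or with S1pr1 or Ccr7 (x axis), by library (colour), with 95% Poisson intervals and open triangles for the 3-count limit of 0 UMIs; lines join groups of cells of 1 library. Ccr9 is lower in exit-type than in Itgae cells in cecum and colon and overlaps in small intestine, while colonic Cxcr4 is 9.31 CPM in Itgae and 119 CPM in exit-type cells.

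Counted per cell after thinning to 1000 UMIs, 30 colonic Cd3+ cells had both Ccr9 and Cxcr6 where the product of the shares gives 16.1, and 23 cecal cells where it gives 11.4. In small intestine the count was 136 and the product 138. The pair is named because its count over product was the highest of the receptor pairs in both libraries, 1.86 in colon and 2.01 in cecum. Other pairs ran from 0.317 to 1.52 in colon and from 0.648 to 1.32 in cecum. The counts are small, and both transcripts were higher in the Trdc gate of the colon than in its marker-negative gate.

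Outside the T cells Ccr9 was highest in the Siglech-expressing dendritic gate, a class known to carry it, with 1677 CPM (1601 to 1756) in small intestine (192 cells), 561 (446 to 696) in cecum (25 cells) and 1857 (1594 to 2151) in colon (17 cells). These were 4.49-fold (4.22 to 4.77), 9.4-fold (7.32 to 11.9) and 30-fold (25.3 to 35.4) their Cd3+ cells; Siglech was at 1552 to 3317 CPM there, and Cd3d, Cd3e and Cd3g were at 0 by the gate's rule. Small intestinal plasma cells had 65.5 CPM (55.1 to 77.3) of Ccr9 (140 UMIs in 185 cells), 17.5% of the Cd3+ level. Gpr171 was at 103 CPM (93.7 to 113) in stomach mast cells (454 UMIs), at 483 (428 to 542) in cecal and 339 (245 to 459) in stomach B cells, and at 741 (578 to 934) in colonic dendritic cells. In 22 of the 36 pairs of receptor and library the gate with the highest level was not a T gate. No like share over all genes is given, and the number of gates of each kind was not allowed for. The count therefore does not set these receptors apart from other genes. Some highest levels rest on few UMIs, in T gates and others. Gpr15 had 1 UMI in small intestinal Cd4 cells and 2 in stomach NK or ILC1 cells, and Gpr55 had 5 in stomach plasma cells.

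**Figure D5:**
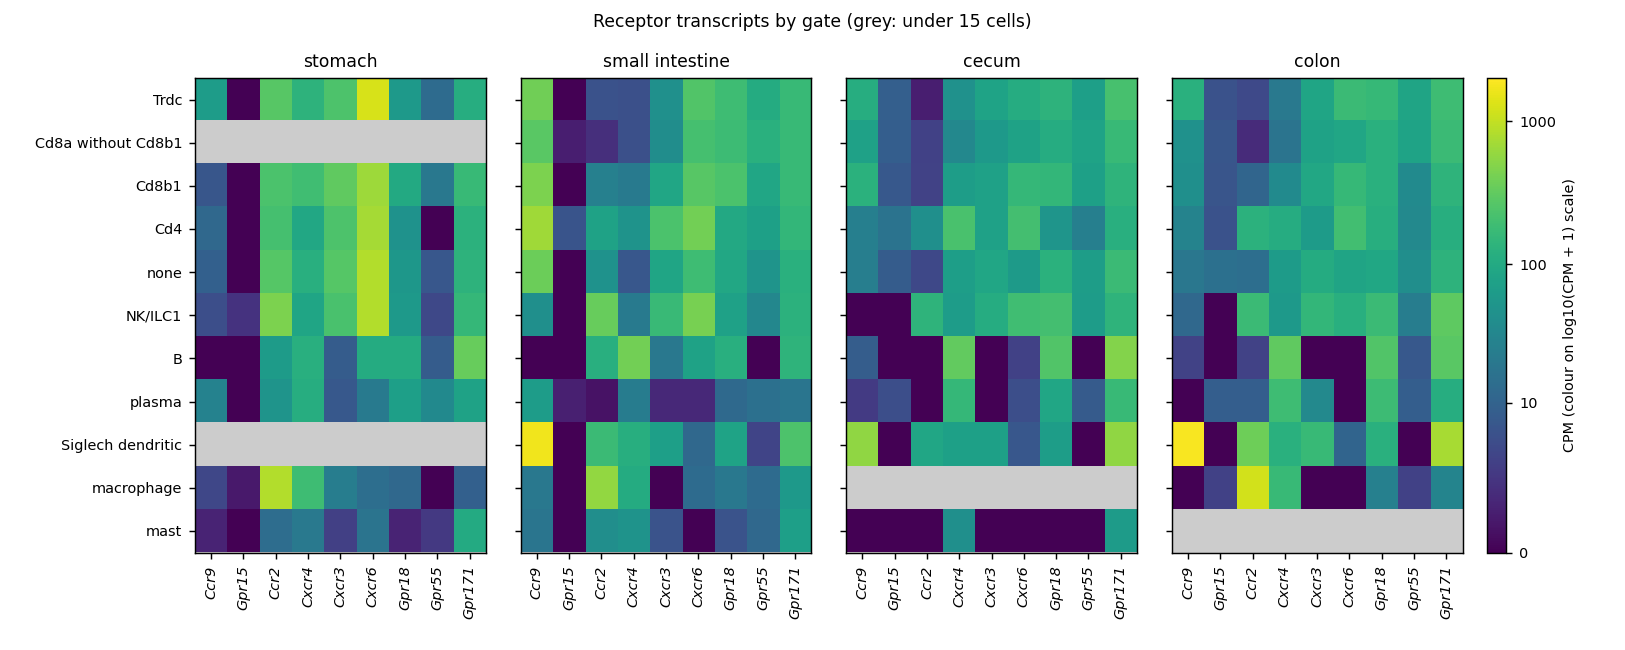
Level of the receptors (x axis) in 11 gates (y axis) of each library (panel), coloured by CPM on a log10(CPM + 1) scale; grey gates hold under 15 cells. The dendritic gate is brightest for Ccr9 in small intestine, cecum and colon, and the macrophage gate for Ccr2 in stomach, small intestine and colon.

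Of 32 other lymphocyte receptors on a list fixed beside the 9, 22 had enough UMIs in Cd3+ cells of small intestine and colon, of which 4 were higher in small intestine, 4 in colon and 14 not called, with a median log2 ratio of 0.22 against 0.42 for the 9. Among those higher in small intestine were Ccr1 (27.4-fold), Ptger4 (3.56-fold) and Ccrl2 (2.20-fold). Higher in colon were S1pr1 (11.7-fold), Cx3cr1 (7.01-fold), Ccr7 (5.03-fold) and Cnr2, which had 0 UMIs in small intestine. The Cnr2 ratio was 3.89-fold with 3 counts for small intestine, and its exact interval began at 2.88. Stomach exceeded small intestine in 13 of 21 and was lower in 1, where 18.3% of all genes were called. It exceeded cecum in 13 of 20 (16.9%) and colon in 13 of 22 (16%), and was lower in 0. In that order the median log2 ratio of the others was 1.31, 1.29 and 1.41, against 0.77, 0.40 and 0.66 for 8 of the 9. For small intestine against colon 11.4% of all genes were called.

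Some of the genes overlap others on the opposite strand in the GENCODE M21 annotation: Cxcr6 overlaps Fyco1, Gpr18 overlaps Ubac2, Gpr171 overlaps Med12l, Gpr15 overlaps Cpox, Gpr55 overlaps 4933407L21Rik and Ccr9 overlaps Lztfl1 and Slc6a20a. The strand setting of the counting is not given in the sources used here, so reads of such pairs may not be separate. In Cd3+ cells of stomach, small intestine, cecum and colon Fyco1 was at 51.7, 71.1, 43.2 and 50.1 CPM, Ubac2 at 202, 266, 284 and 248, and Lztfl1 at 27.7, 47, 28.3 and 29.1.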

How the data were processed

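Leukocytes of 4 gut tissues were profiled in 1 library each, with the version 2 kit of the 10x Genomics 3′ method per the labels' protocols, whose text names colons in all 4 records; tissue labels were followed. The deposited values are raw UMI counts per gene and cell; Cell Ranger, Seurat 3.0.0 and the builds GRCm38 and mm10 are named in the submitters' processing notes, with no Cell Ranger version. Mitochondrial and ribosomal protein symbols are not listed. Of 14378 barcodes, 14373 with at least 200 genes were kept. UMI minimums for a class were 2 for B (Cd79a, Cd79b and Ms4a1 among others), 3 for plasma (Sdc1, Mzb1, Tnfrsf17, Derl3), 2 for Siglech dendritic (Siglech, Klk1, Cox6a2, Cd300c), 3 for macrophage (C1qa, C1qb, C1qc, Csf1r, Adgre1 and Fcgr1 among others), 5 for mast (Cpa3, Kit, Fcer1a, Ms4a2, Cma1, Hdc, Gata2) and, without Cd3 or Trac, 2 for NK or ILC1 (Ncr1, Klrb1c, Klrb1b, Eomes, Klre1). Counts were summed per gate and scaled to CPM; ratios needed 30 cells per library (15 between gates of a library).

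The receptors and lists were chosen with earlier results of these data known. Genes named beside the 9 come from the 4 highest and 4 lowest other receptors in small intestine against colon, the ligand genes, the 3 genes most correlated with each receptor, and markers; some of these genes are not reported here. The split by retention and exit transcripts uses S1pr1 and Ccr7 and was set after the data were seen. The intervals of a ratio of ratios are approximate. Alternatives changed the gate thresholds, cell filters, depth, weighting, scaling, fold, UMI minimum and mix of gates. Scripts were tested on simulated data (Python 3.11.15, numpy 2.4.6, scipy 1.17.1, pandas 2.3.3). The analysis of 1 library per tissue allowed no test across samples.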

Additional observations from a re-analysis of the deposited data

Results flagged for a closer look

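Called ratios, those of at least 2-fold, pointed in opposite directions between the same libraries in different gates for 2 receptors, and none of these differences was tested. For Ccr2 in small intestine against colon, the marker-negative gate was 3.24-fold higher in small intestine and the macrophage gate 2.02-fold higher in colon. For Cxcr4 in stomach against cecum, Trdc cells were 2.88-fold and Cd8b1 cells 2.91-fold higher in stomach, while Cd4 cells were 2.32-fold and B cells 2.69-fold higher in cecum. For Cxcr4 in stomach against colon, Trdc cells were 6.47-fold and Cd8b1 cells 5.31-fold higher in stomach, and B cells 2.55-fold higher in colon. The stomach Cd4 gate holds 31 cells and the stomach B gate 55.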

How the results depend on the processing

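No paired analysis was possible because each tissue has 1 library. Across 15 alternative settings the calls over Cd3+ cells numbered 30 to 35, against 30, and no called ratio reversed; 93 of 3742 ratios lay outside the original interval. Between cecum and colon, where no receptor was called, 1 was called with at least 2 Cd3 UMIs, without cells carrying NK markers, after thinning to 1000 UMIs, with median-ratio scaling or without the cell with the highest count, and 2 with mixed cells kept or at a fold of 1.5. Gate comparisons are counted only for receptors called over Cd3+ cells, so their number there was 0 by rule in the original setting. Under these settings it was 2, 2, 1, 2, 1, 4 and 5, in the same order. The gates did hold called ratios between cecum and colon in the original setting. These were in 2 gates for Ccr2, 2 for Cxcr4, 1 for Gpr55 and 1 for Ccr9. After thinning, 12 gate comparisons of stomach against cecum were called in place of 19, and 9 of stomach against colon in place of 17; thinning removes UMIs, so fewer reach the minimum of 20. Ccr2 in colon over cecum was 2.32-fold with at least 2 Cd3 UMIs, 4.27-fold without NK-marked cells, 2.77-fold with mixed cells, 3.09-fold thinned, 2.01-fold with median-ratio scaling and 2.05-fold without that cell. Cxcr6 in small intestine over colon was 1.94-fold without NK-marked cells and 1.84-fold with mixed cells, and Cxcr4 in stomach over cecum 1.70-fold and in cecum over colon 2.0-fold with mixed cells. Gpr18 over stomach was 2.06-fold in cecum and 2.17-fold in colon with mixed cells, and 2.12-fold and 2.31-fold thinned; Cxcr3 in colon over small intestine was 2.28-fold thinned. The cause was not tested. Depth limits Gpr15 in stomach, with 0 UMIs in 297 cells.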

Other observations

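The ligand transcripts Ccl25, Cxcl16 and Ccl2 were highest outside the T cells. Ccl25, the Ccr9 ligand, was highest in ungated cells of small intestine, at 623 CPM (195 UMIs). Cxcl16, the Cxcr6 ligand, was highest in stomach macrophages at 772 CPM (1151 UMIs). Ccl2, the Ccr2 ligand, was highest in stomach mast cells at 2647 CPM (11672 UMIs). The Cxcr3 ligand Cxcl10 was not confined to other classes. In stomach it was at 275 CPM (243 to 310) in NK or ILC1 cells and 309.8 (202 to 454, 26 UMIs) in the Cd4 gate. Stomach Cd3+ cells had 199.7 CPM of Cxcl10 and stomach macrophages 193.8. Cxcl12 had 27 UMIs in all libraries and Ccl28 12.

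Over 19 sums of a T gate in a library, which share libraries and depth, Ccr2 and Cxcr6 had a Pearson correlation of 0.852, Gpr18 and Gpr55 of 0.858, Ccr9 and Cxcr4 of -0.727 and Ccr2 and Gpr55 of -0.829, on a log2(CPM + 10) scale. Among 6101 genes the most similar were B4galnt2 for Ccr9 (0.885), Flna for Ccr2 (0.941), Tspo for Cxcr4 (0.916), Klf6 for Cxcr3 (0.910), B2m for Cxcr6 (0.910), Mbnl1 for Gpr18 (0.881), Nin for Gpr55 (0.912) and Sharpin for Gpr171 (0.747). Gpr15 is left out, since its levels lie under the 50 CPM set for this step.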
